A study of Homo sapiens with 6 samples.

Results

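Small nucleolar RNAs of the H/ACA class, which carry symbols starting with SNORA, and the small Cajal body RNAs, which carry symbols starting with SCARNA, are described here in human embryonic stem cells grown in AKIT or E8 medium. Rows were selected on their measured level: the symbol started with either name, and the mean of all AKIT and E8 libraries reached 1 RPKM (reads per kilobase of the row and per 1000000 reads of the library). This gave 75 of the 130 SNORA and SCARNA rows in a table of 23346 rows, namely 64 of 106 SNORA rows and 11 of 24 SCARNA rows. Of the 55 rows left out, 45 had reads and 10 were listed at 0 in every library. Because the rows were chosen by these RPKM values, the levels below are a description. SNORA53, SNORA60 and SNORA50 lay just inside the threshold with means of 1.20, 1.13 and 1.02 RPKM, and SNORA2B, SNORA42 and SCARNA8 lay just outside with 0.976, 0.976 and 0.936 RPKM.

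The cells were KhES-1, an established line of human embryonic stem cells, on dishes coated with 0.5 µg per cm2 of a laminin fragment in both media. Libraries were made from total RNA of cells in AKIT (3 libraries) and in Essential 8, called E8, the control medium (2 libraries). AKIT replaces added growth factors with small inhibitors of kinases and of calcineurin. E8 replicate 3 was not analysed here, all cells are of 1 line, and whether replicates came from separate cultures is not stated, so p-values cover only the scatter among these libraries, possibly of technical origin.

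H/ACA RNAs fold into hairpins and pair with a target RNA, where the protein dyskerin, which each of them carries, turns a chosen uridine into pseudouridine. The SNORA RNAs of the nucleolus act mostly on ribosomal RNA, and the small Cajal body RNAs act on the small nuclear RNAs of the spliceosome. In human cells nearly all of them are cut out of introns of host genes, many of which encode ribosomal proteins or translation factors, while others, named SNHG, are noncoding. The SCARNA symbols name a place in the nucleus and not a class of box: SCARNA2, SCARNA9 and SCARNA17 are known as box C/D RNAs, which guide methylation, and SCARNA10 and SCARNA12 carry both kinds of box.

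The sequences below are those of the rows on which the values turn, as annotated in GENCODE release 29 (GRCh38). SNORA70 and SNORA67 had the highest means, SNORA40 comes from the host with the most rows, SNORA4 differed between AKIT libraries, SNORA76 went against the other rows, SNORA69 was the row that passed the test between media, and SCARNA12 was the highest small Cajal body RNA. Capitals mark an ACA box that ends within the last 6 bases. They also mark the pattern of the H box, ANANNA on the strand of the RNA. It was marked where a predicted fold (RNAfold) left it unpaired in the middle part of the RNA. Whether the pattern lies between hairpins was not checked.
SNORA70, chromosome X, RPL10: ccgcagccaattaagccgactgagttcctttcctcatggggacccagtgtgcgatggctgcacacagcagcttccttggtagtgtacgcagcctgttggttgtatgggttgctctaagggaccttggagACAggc
SNORA67, chromosome 17, EIF4A1: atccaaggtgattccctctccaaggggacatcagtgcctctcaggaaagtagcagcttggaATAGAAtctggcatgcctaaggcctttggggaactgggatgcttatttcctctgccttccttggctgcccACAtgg
SNORA40, chromosome 11, TAF1D: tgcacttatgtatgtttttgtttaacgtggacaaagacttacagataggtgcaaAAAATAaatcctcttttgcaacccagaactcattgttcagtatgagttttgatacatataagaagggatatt
SNORA4, chromosome 3, EIF4A2: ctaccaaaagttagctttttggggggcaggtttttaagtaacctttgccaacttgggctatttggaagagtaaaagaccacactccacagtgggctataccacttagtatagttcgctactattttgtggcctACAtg
SNORA76, chromosome 17, SNHG25: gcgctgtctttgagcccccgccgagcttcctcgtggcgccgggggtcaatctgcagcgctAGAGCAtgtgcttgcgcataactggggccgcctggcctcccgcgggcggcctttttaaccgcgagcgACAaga
SNORA69, chromosome X, RPL39: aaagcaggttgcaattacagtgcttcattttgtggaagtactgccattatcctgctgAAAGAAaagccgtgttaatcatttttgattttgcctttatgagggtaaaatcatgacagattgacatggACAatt
SCARNA12, chromosome 12, PHB2: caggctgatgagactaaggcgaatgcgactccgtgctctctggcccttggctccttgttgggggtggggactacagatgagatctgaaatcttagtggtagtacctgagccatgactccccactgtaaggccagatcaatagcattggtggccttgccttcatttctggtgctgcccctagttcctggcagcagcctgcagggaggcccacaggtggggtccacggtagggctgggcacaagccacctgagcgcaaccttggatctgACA

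Letters matching the boxes of the class were found in most SNORA rows. An ACA ended within the last 6 bases of 57 of the 63 SNORA members with a sequence (90.5%). The same held for 134 of 149 SNORA sequences in GENCODE (89.9%) and 14 of 288 box C/D (SNORD) sequences (4.86%). An unpaired ANANNA lay in 36 of those 63 members (57.1%), against 82 of 149 (55.0%) and 29 of 288 (10.1%). SNORA40 is shown without a capital ACA because none ended in its last 6 bases. A TGAG, known as the core of the motif that keeps small RNAs in Cajal bodies, lay in 6 of the 7 small Cajal body RNAs with a sequence and in 28 of the 63 SNORA members, and so was common in both.

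The rows rest on few reads. Library totals were 23253216, 23263095 and 19398694 reads for AKIT replicates 1, 2 and 3, and 17657634 and 16242864 reads for E8 replicates 1 and 2. The members are 121 to 421 bases long (median 134), and at 134 bases 1 read stood for 0.321, 0.321 and 0.385 RPKM in the AKIT libraries and 0.423 and 0.459 RPKM in the E8 libraries. Over the 5 libraries a member had 15 to 579 reads (median 70), 27 members had at least 100, and 14 had fewer than 30. A value of 0 allows up to 3 reads, for counting error only. The 10 highest rows held 45.6% of the 9430 reads. A read in a row can come from the small RNA, from unspliced host RNA or from a host transcript that retains the intron, and these cannot be told apart in the values.

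As classes, the rows differed more among the AKIT libraries than between the media. In RPM (reads per 1000000 reads of the library), the 75 rows together took 60.2, 127 and 80.0 RPM in AKIT replicates 1, 2 and 3, and 107 and 101 in E8 replicates 1 and 2. AKIT replicate 2 was thus the highest of the 5 libraries and AKIT replicate 1 the lowest, with both E8 libraries between them. The means were 88.9 ± 34.1 RPM in AKIT (SD, n = 3) and 104 ± 4.62 RPM in E8 (SD, n = 2), so the difference between media was smaller than the spread of the AKIT libraries. With 3 libraries against 2, the smallest two-sided p an exact permutation test of such a single value can give is 0.1. The ratio of AKIT replicate 2 to AKIT replicate 1 was 2.10 for all members, 2.05 for the SNORA rows and 2.51 for the SCARNA rows.

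**Figure D1:**
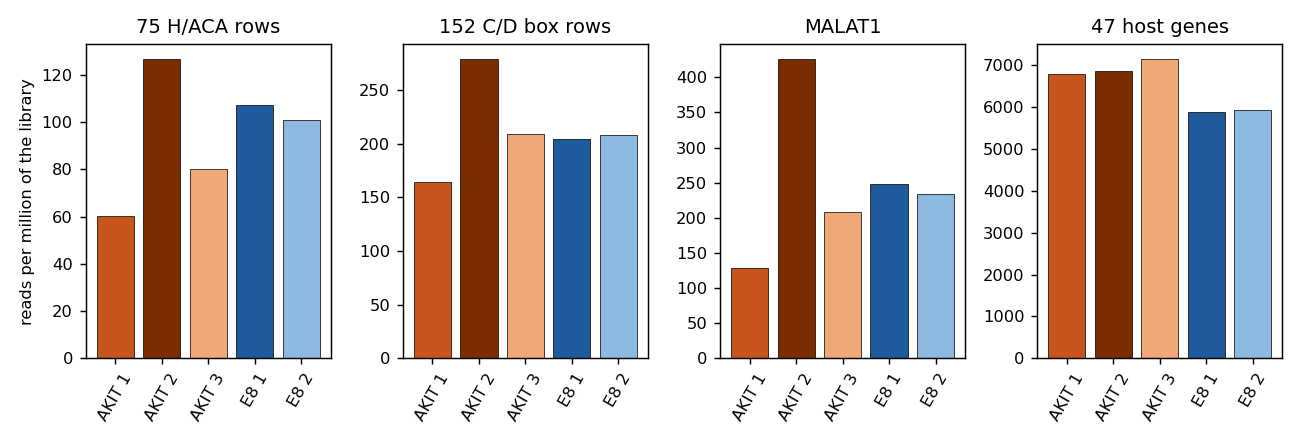
RPM, reads per 1000000 reads of the library (vertical axis, from 0, a separate scale in each panel) in AKIT replicates 1 to 3 and E8 replicates 1 and 2, for the 75 H/ACA rows, the 152 box C/D rows, MALAT1 and the 47 host genes. AKIT replicate 2 is the highest bar and AKIT replicate 1 the lowest in the first 3 panels, while the host genes take 6782 to 7150 RPM in the AKIT libraries and 5888 and 5919 in the E8 libraries.

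Other nuclear RNAs varied between the same libraries. Box C/D rows with a mean of at least 1 RPKM (152 rows, SNORD symbols) took 164, 279 and 209 RPM in AKIT replicates 1, 2 and 3, and 205 and 208 in the E8 libraries. MALAT1, a long noncoding RNA kept in nuclear speckles, took 129, 426 and 208 in AKIT and 247 and 234 in E8. Both showed the order of the H/ACA rows among the AKIT libraries, with replicate 2 above replicate 3 and replicate 3 above replicate 1. NEAT1, the scaffold of paraspeckles, took 111, 148 and 69.7 in AKIT against 68.7 and 59.2 in E8, and there replicate 3 was the lowest AKIT library. Histone rows took 156, 165 and 199 in AKIT against 70.5 and 72.1 in E8, and the 47 host genes took 6782, 6867 and 7150 against 5888 and 5919, so neither class set AKIT replicate 2 apart. MALAT1, NEAT1 and the histone rows were chosen after their values were seen. The part of nuclear RNA content or of library preparation in the order of the AKIT libraries was not tested.

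Row by row, the same library led. Among the AKIT libraries, replicate 2 was the highest in 58 of 75 members (77.3%), against 33.8% of the 13556 rows averaging at least 1 RPKM and 63.8% of the 152 box C/D rows. Replicate 1 was the lowest in 49 members (65.3%), against 31.9% of those rows. Among the 27 members with at least 100 reads, replicate 2 was the highest in 23 (85.2%). Median levels of the members were 2.57, 6.89 and 3.85 RPKM in AKIT replicates 1, 2 and 3, and 4.61 and 3.94 RPKM in E8 replicates 1 and 2. On the log2(RPKM + 1) scale, AKIT replicate 2 exceeded the mean of replicates 1 and 3 by a median of 0.75 in the members and 0.63 in the box C/D rows, and by a median of -0.02 in all 13556 rows. Over all 5 libraries, 41 members had their highest value in AKIT replicate 2 and 41 their lowest in AKIT replicate 1.

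The highest rows show how this looked in single RNAs. SNORA70 had 25.2, 42.0 and 33.2 RPKM in AKIT and 51.6 and 45.1 RPKM in E8. SNORA67 had 21.0, 39.2 and 30.1 RPKM in AKIT and 44.6 and 56.2 RPKM in E8. In both rows every AKIT library was below both E8 libraries, and replicate 2 came nearest to E8. SNORA10, from the ribosomal protein gene RPS2, had 30.1, 44.0 and 33.7 RPKM in AKIT and 40.0 and 41.2 RPKM in E8. SNORA64, from the same gene, had 15.7, 35.6 and 27.3 RPKM in AKIT and 35.5 and 22.5 RPKM in E8. In this pair AKIT replicate 2 reached or passed the E8 libraries while replicate 1 was below both.

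Other rows had AKIT replicate 2 above every other library by a wider margin than SNORA10 and SNORA64. SNORA61, from the noncoding host SNHG12, had 22.2, 40.0 and 20.2 RPKM in AKIT and 25.7 and 18.0 RPKM in E8. SNORA63, from the translation factor gene EIF4A2, had 11.8, 33.1 and 17.6 RPKM in AKIT and 22.7 and 23.3 RPKM in E8. SNORA4, from the same gene, had 9.42, 38.9 and 15.1 RPKM in AKIT and 19.4 and 17.5 RPKM in E8. SNORA4 and SNORA63 thus shared their order of AKIT libraries, while EIF4A2 itself, an RNA helicase of translation initiation, had 166, 156 and 140 RPKM in AKIT and 153 and 151 RPKM in E8. SNORA4 was chosen after its values were seen.

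**Figure D2:**
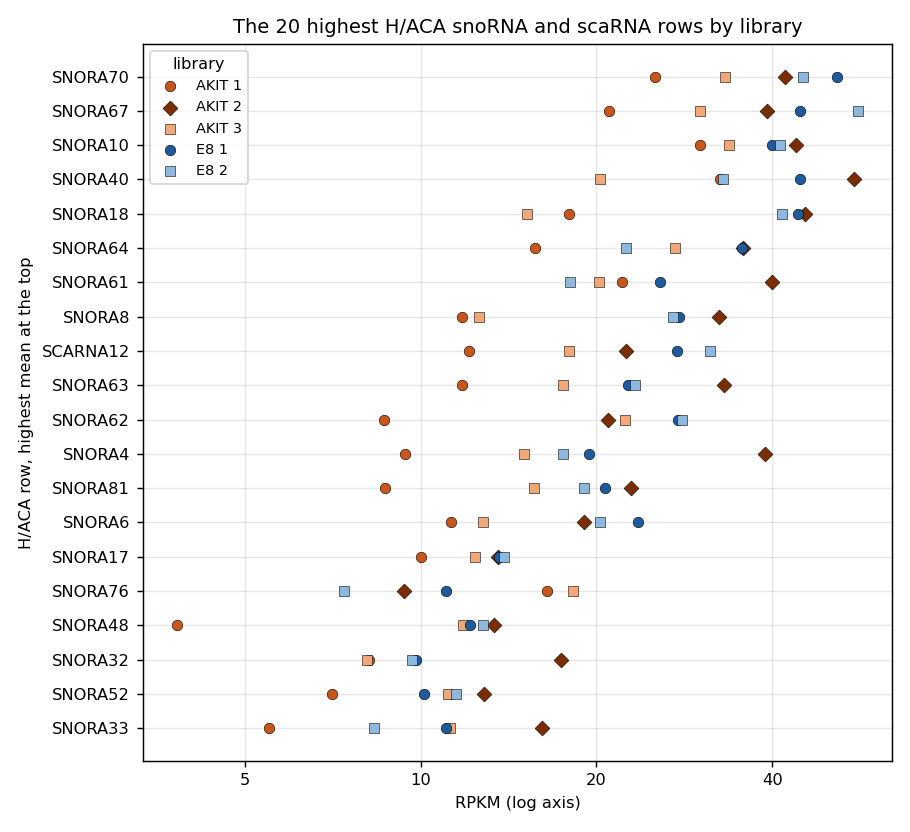
RPKM (horizontal log axis) of the 20 rows with the highest mean in each of the 5 libraries; orange to brown symbols are AKIT libraries, blue symbols are E8 libraries, and the brown diamond is AKIT replicate 2. The diamond lies right of the other AKIT symbols in most rows, and SNORA76, at 9.37 RPKM in AKIT replicate 2 against 16.5 and 18.2 RPKM in AKIT replicates 1 and 3, is an exception.

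TAF1D, a subunit of the RNA polymerase I factor SL1, hosts 6 of the rows on chromosome 11. SNORA40 had 32.5, 55.2 and 20.3 RPKM in AKIT and 44.6 and 33.0 RPKM in E8. SNORA18 had 17.9, 45.6 and 15.2 RPKM in AKIT and 44.2 and 41.5 RPKM in E8. SNORA8 had 11.8, 32.5 and 12.6 RPKM in AKIT and 27.7 and 27.0 RPKM in E8. In SNORA18 and SNORA8 the AKIT libraries fell into a high one, level with E8, and a low pair, and in SNORA40 replicate 1 lay beside E8 replicate 2. The other rows of this host, SNORA32, SNORA25 and SNORA1, also peaked in AKIT replicate 2, at 17.4, 12.4 and 10.3 RPKM. TAF1D had 16.8, 33.0 and 21.9 RPKM in AKIT and 21.1 and 19.5 RPKM in E8, so the host was also highest in AKIT replicate 2. Its 6 rows summed to 76.3, 173 and 64.1 RPKM in AKIT and 139 and 122 RPKM in E8.

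Reads of pairs of libraries in the same medium were compared with an exact binomial test on recovered reads, two-sided and adjusted over all rows by the Benjamini-Hochberg method. This test compares libraries and not media, and its p-values cover counting error only, not the scatter between libraries: over rows the chi-square of the reads averaged 33.3 per row for AKIT replicates 1 and 2 and 3.41 for the E8 pair, and over members 12.7 and 1.73, where counting error alone gives about 1. Between AKIT replicates 2 and 1, 38 of 75 members were higher in replicate 2 and 1 was lower, against 20.2% and 22.1% of the 19239 rows tested. Between AKIT replicates 2 and 3, 16 members were higher in replicate 2 and 1 was lower, against 19.2% and 21.7% of rows. Between AKIT replicates 3 and 1, 9 were higher in replicate 3 and 1, SNORA40, was lower, against 15.8% and 15.1%. Between E8 replicates 2 and 1, 0 members passed in either direction, against 3.61% and 4% of rows. In this pair 5 members had an unadjusted p under 0.05, beside 3681 of the 18735 rows tested. Of the members, more were thus higher than lower in AKIT replicate 2 against either other AKIT library, and the 16 of 75 higher against replicate 3 were near the background share.

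SNORA4 had the smallest p of the members between AKIT replicates 2 and 1, with 4.13 times the rate of AKIT replicate 1 in AKIT replicate 2 (exact binomial test, adjusted p = 1.03e-13). SNORA18 had a ratio of 2.54 against replicate 1 (exact binomial test, adjusted p = 7.56e-09) and 2.99 against replicate 3 (adjusted p = 6.81e-10). SNORA70, the highest row, had a ratio of 1.67 against replicate 1 (exact binomial test, adjusted p = 0.00116) and 1.27 against replicate 3 (adjusted p = 0.193). The single row that went down in AKIT replicate 2 against both other AKIT libraries was SNORA76, with ratios of 0.568 (adjusted p = 0.0439) and 0.515 (adjusted p = 0.0170). SNORA76, from the noncoding host SNHG25, had 16.5, 9.37 and 18.2 RPKM in AKIT and 11.1 and 7.41 RPKM in E8. SNORA26, from the noncoding host DANCR, hardly varied, at 10.2, 9.87 and 9.72 RPKM in AKIT and 8.36 and 9.08 RPKM in E8. SNORA76 and SNORA26 were chosen after their values were seen.

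The ratio of the highest to the median library was taken for members with at least 20 reads in some library. The 5 rows with the largest ratio all peaked in AKIT replicate 2. SCARNA9L had 3, 38 and 14 reads in AKIT and 6 and 8 reads in E8. SCARNA17, a box C/D RNA of the Cajal body, had 19, 68 and 12 reads in AKIT and 26 and 15 reads in E8. SNORA1 had 6, 31 and 9 reads in AKIT and 17 and 8 reads in E8. In SCARNA9L and SCARNA17, AKIT replicate 2 held more reads than both E8 libraries together. These reads are not scaled to library totals, which were 23263095 in AKIT replicate 2 against 17657634 and 16242864 in E8. SNORA43, from SNHG7, had 8, 23 and 10 reads in AKIT and 7 and 5 reads in E8. SNORA74A, from SNHG4, had 7, 23 and 11 reads in AKIT and 3 and 2 reads in E8, and there every AKIT library was above both E8 libraries.

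The small Cajal body RNAs were low apart from SCARNA12. SCARNA12, from PHB2, the gene of a prohibitin of the mitochondrial inner membrane, had 12.1, 22.4 and 17.9 RPKM in AKIT and 27.5 and 31.2 RPKM in E8, so that all AKIT libraries were below both E8 libraries. SCARNA27 had 3.41, 10.6 and 5.73 RPKM in AKIT and 4.94 and 1.95 RPKM in E8, and SCARNA13, from SNHG10, had 0.782, 3.28 and 2.44 RPKM in AKIT and 2.88 and 5.60 RPKM in E8. These 2 rows differed between the E8 libraries by as much as between some AKIT libraries. SCARNA2, a box C/D RNA, had 1.23, 3.07 and 2.45 RPKM in AKIT and 0.539 and 1.47 RPKM in E8. SCARNA22, from WHSC1, had 1.72, 0.688 and 1.24 RPKM in AKIT and 1.81 and 3.94 RPKM in E8. SCARNA22 was thus 1 of 6 members in which AKIT replicate 2 was the lowest AKIT library. SCARNA10, from NCAPD2, stayed between 1.12 and 1.54 RPKM in all 5 libraries. SCARNA16, from LINC00338, and SCARNA15 rested on 52 and 22 reads. SCARNA9 and SCARNA9L bear the names of a gene and its copy, and with 73 and 69 reads their values are uncertain, because reads could have been split between them.

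Close relatives among the members were few. SNORA5A and SNORA5B, both from TBRG4, were identical at 89.6% of positions, and SNORA71A and SNORA71C at 84.3%. SNORA5A had 2.57, 7.06 and 2.69 RPKM in AKIT and 3.38 and 7.35 RPKM in E8, and SNORA5B had 0.326, 1.63 and 1.95 RPKM in AKIT and 1.72 and 1.40 RPKM in E8. SNORA5A was the higher of the pair in every library, but the way reads with more than 1 match were counted is not given in the sources used here.

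Between the media, few of the rows differed beyond the spread of their libraries. Each row was tested with limma on log2(RPKM + 1) in a fit over the 14776 rows that averaged 0.5 RPKM or more, with Benjamini-Hochberg adjustment over all of them at 0.05. Of the 75 members, 0 were higher in AKIT and 1 was lower, against 8.22% of all rows higher and 11.7% lower (20% in either direction). An unadjusted limma p under 0.05 was found in 11 members, beside 5320 of the 14776 rows, so the members were under the background there too. By voom on recovered reads 0 members were higher and 0 lower. The differences ran from -1.02 to 1.16 with a median of -0.12, beside a median of -0.01 over all rows, and 42 were negative and 33 positive. Every AKIT library was below both E8 libraries in 9 members (28.6% of all rows) and above both in 5 (25.8%). The standard error of a member's difference had a median of 0.33. Relative spread was larger among AKIT than E8 libraries in 61 of 75 members, and the share over all rows was not computed. Over all rows the chi-square per row was also larger in the AKIT pairs (33.3, 17.5 and 27.7) than in the E8 pair (3.41). A larger spread among the AKIT libraries was thus not particular to the members.

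SNORA69, from the ribosomal protein gene RPL39, was the row that passed. It had 0.326, 1.30 and 1.17 RPKM in AKIT and 2.57 and 2.33 RPKM in E8, which are 1, 4 and 3 reads against 6 and 5 reads. The 19 reads gave a difference of -0.88 ± 0.25 (SE) on the log2(RPKM + 1) scale (limma, adjusted p = 0.0481), and every AKIT library was below both E8 libraries. It is also the single member with an AKIT mean under 1 RPKM, so that it entered the rule through E8. The call was lost under pseudocounts of 0.1 and 0.5 (limma adjusted p = 0.0894 and 0.0621). Among the alternatives listed below, it was also lost without a filter and with median-of-ratios scaling, quantile normalization, voom or a replicate block. Leaving out AKIT replicate 3 lost it too. The call held without a trend, with array weights, and without AKIT replicate 1 or 2. Fits without E8 replicate 1 or E8 replicate 2 rest on 1 E8 library, and gave differences of -0.83 and -0.93. Over the alternatives with both E8 libraries, limma or voom adjusted p-values ran from 0.00966 to 0.168. SNORA74A went the other way, with 1.51, 4.94 and 2.84 RPKM in AKIT and 0.849 and 0.616 RPKM in E8, a difference of 1.16 ± 0.33 (SE) with a limma adjusted p of 0.05004, just past the threshold of 0.05 and so not called (0.0135 to 0.250 over all alternatives). It was 1 of 5 members with an E8 mean under 1 RPKM. Among the highest rows, SNORA70 had a difference of -0.54 ± 0.20 (SE; limma adjusted p = 0.0998), SNORA67 of -0.76 ± 0.24 (limma adjusted p = 0.0692) and SCARNA12 of -0.75 ± 0.23 (limma adjusted p = 0.0607). For SNORA18, with -0.85 ± 0.41 (limma adjusted p = 0.184), the 95% interval ran from -1.82 to 0.12.

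Leaving out AKIT replicate 2, the highest AKIT library in most members, changed these counts. Without AKIT replicate 1, 2 of 75 members were higher and 2 lower, beside 791 and 1257 of 14783 rows, so both shares were under the background. Against the E8 mean, on the log2(RPKM + 1) scale, the members had a median of 0.36 in AKIT replicate 2. For the mean of AKIT replicates 1 and 3 it was -0.35, of similar size in the other direction. Without AKIT replicate 2, 16 of 75 members were lower in AKIT and 2 were higher, against 17.8% of 14747 rows lower and 14.5% higher, so the share of members lower was near the background and the share higher was under it. The median difference of the members was then -0.35, beside -0.01 over all rows. SNORA18 fell by 1.32 ± 0.10 on the log2 scale (SE; limma, adjusted p = 0.000735) and SNORA8 by 1.11 ± 0.09 (limma, adjusted p = 0.000759). SNORA67, SCARNA12 and SNORA70 fell by 0.96, 0.94 and 0.72 (limma, adjusted p = 0.0114, 0.0109 and 0.0130), and the 2 that rose were SNORA76, by 0.86, and SNORA74A, by 0.84 (limma, adjusted p = 0.0137 and 0.0319). AKIT replicates 1 and 3 were both below both E8 libraries in 34 of 75 members (35.6% of the 13556 rows) and both above in 7 (35.3%). The choice to leave out this library rests on the values of these rows, so these calls describe 4 libraries and add no independent evidence of a difference between media.

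**Figure D3:**
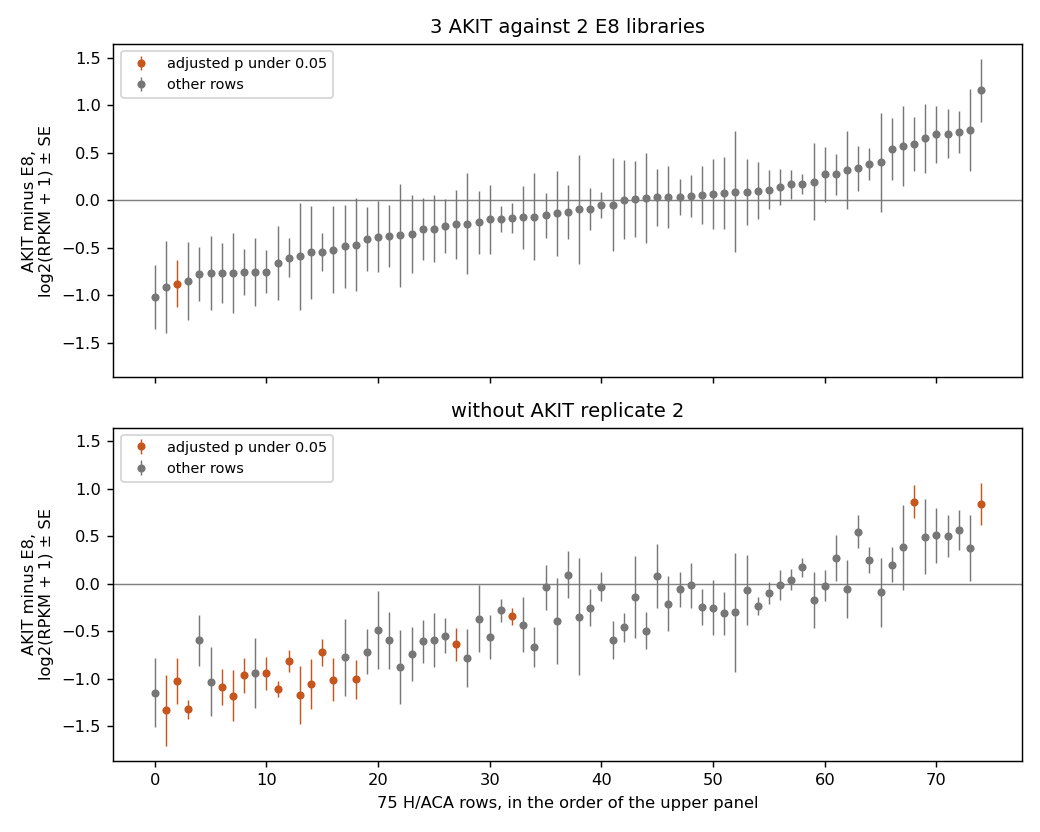
AKIT level minus E8 level in log2(RPKM + 1), with its standard error (vertical axis), for the 75 rows, ordered by the difference with all libraries; the upper panel uses 3 AKIT and 2 E8 libraries and the lower leaves out AKIT replicate 2. Orange points have an adjusted p under 0.05, 1 in the upper panel and 18 in the lower, of which 16 lie below 0.

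The host genes did not share the order of the AKIT libraries. GENCODE places 70 of the 75 members in a host gene, and 65 have a host with a row in the table, 47 hosts in all. The remaining members were not matched to a GENCODE entry, so no host was looked up for them. AKIT replicate 2 exceeded the mean of replicates 1 and 3 by a median of -0.03 in the hosts, on the log2(RPKM + 1) scale, beside 0.75 in the members, and it was the highest AKIT library in 17 of 47 hosts. The deviation of the small RNA was above that of its host in 56 of 65 members. Some hosts did vary. The noncoding SNHG12 had 11.7, 22.2 and 10.7 RPKM in AKIT and 9.73 and 12.5 RPKM in E8. SNHG4, also noncoding, had 19.1, 49.4 and 37.6 RPKM in AKIT and 19.6 and 17.7 RPKM in E8. SNHG12 had the AKIT library order of its row SNORA61. RPL10, the host of SNORA70, had 28.4, 28.4 and 31.2 RPKM in AKIT and 35.4 and 33.4 RPKM in E8, and EIF4A1, the host of SNORA67, had 186, 192 and 212 RPKM in AKIT and 200 and 192 RPKM in E8. In neither of these coding hosts did AKIT replicate 2 stand apart. Hosts did not divide into coding and noncoding in this respect. Among coding hosts, TAF1D and NOP56 had deviations of 0.75 and 0.55. Among noncoding hosts, SNHG8 and DANCR had deviations of -0.25 and -0.11. By host, replicate 2 was the highest AKIT library in 10 of 11 members from SNHG genes, 12 of 17 from ribosomal protein genes and 28 of 37 from other hosts.

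**Figure D4:**
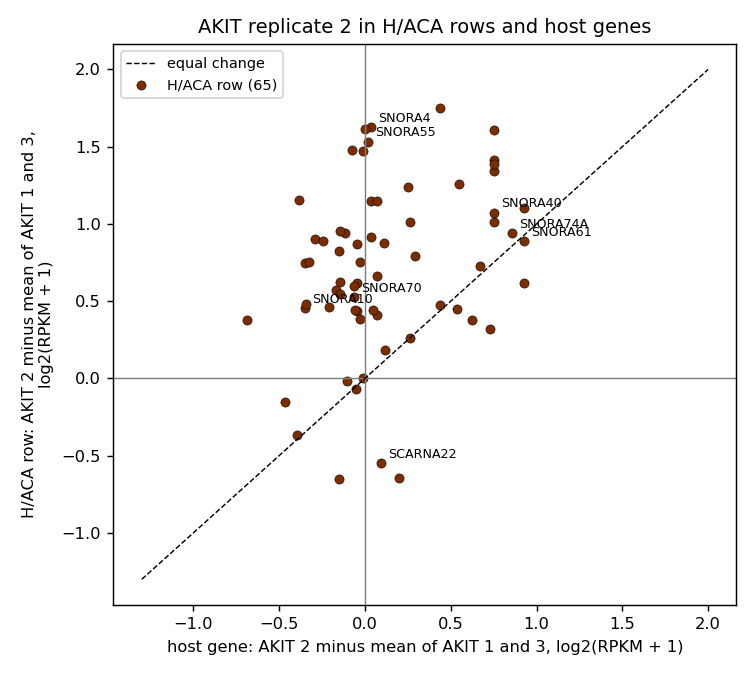
AKIT replicate 2 minus the mean of AKIT replicates 1 and 3, on the log2(RPKM + 1) scale, in each of 65 small RNA rows (vertical axis) and in its host gene (horizontal axis); the dashed line marks equal change. Of the 65 points 56 lie above the dashed line, and the column of 6 points right of 0 at the same host value is the set of rows from TAF1D.

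Between the media hosts and small RNAs also parted. Of the 47 hosts, 9 rose in AKIT and 0 fell by limma at an adjusted p of 0.05, with a median difference of 0.23, beside 8.22% and 11.7% of all rows. An unadjusted limma p under 0.05 was found in 20 hosts, beside 5320 of the 14776 rows, a share not far from that of the hosts. RPL23, a ribosomal protein gene, had 69.2, 63.6 and 71.7 RPKM in AKIT and 28.2 and 22.3 RPKM in E8 (log2 difference 1.41 ± 0.12 SE, limma adjusted p = 0.00142). Its row SNORA21 had 1.29, 2.91 and 0.775 RPKM in AKIT and 3.83 and 2.78 RPKM in E8 (-0.76 ± 0.32 SE, limma adjusted p = 0.134). The gene was higher in every AKIT library than in both E8 libraries, whereas the small RNA was not higher in AKIT replicates 1 and 3. RPLP2 rose by 1.13, RPS12 by 0.82, RPL5 by 0.64 and RPL30 by 0.55 on the log2 scale (limma, adjusted p = 0.00913, 0.00890, 0.0253 and 0.0369). Their rows SNORA52, SNORA33, SNORA66 and SNORA72 had differences of -0.09, 0.06, 0.07 and -0.16, and none passed the test. Without AKIT replicate 3, E8 replicate 1 or E8 replicate 2, the hosts that rose numbered 5, 1 and 3, and without AKIT replicate 2 there were 15 that rose and 3 that fell. Of all rows, 14.5% rose and 17.8% fell without AKIT replicate 2. With all libraries, the difference of the small RNA lay below that of its host in 51 of 65 members, and the median gap over the pairs was 0.42. Ribosomal protein genes have many processed copies, so that their RPKM values are uncertain where reads could match more than 1 place.

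The level of a small RNA did not follow its host. Per length, 58 of 65 members were below their host, with a median of 19.3% of the host's RPKM and a range from 0.485% to 223%. SNORA31, at 0.331, 2.98 and 3.17 RPKM in AKIT and 0.871 and 3.79 RPKM in E8, lies in TPT1, which had 553, 441 and 554 RPKM in AKIT and 367 and 379 RPKM in E8. SNORA57, at 8.08, 12.1 and 9.34 RPKM in AKIT and 10.3 and 7.44 RPKM in E8, lies in METTL12, which had 4.67, 4.67 and 5.04 RPKM in AKIT and 3.20 and 3.61 RPKM in E8. These rows mark the ends of the range and were chosen after their values were seen. Across the 65 pairs the levels of small RNA and host had a Spearman correlation of 0.18, and the deviations of AKIT replicate 2 one of 0.30. These pairs share libraries, and several rows share a host.

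Where a row lies in its host went with its level. Of the 70 members with a host, 39 lie inside an exon of some annotated host transcript, in 36 cases of a retained-intron or noncoding transcript and in 3 of a coding one, while 25 are intronic in every transcript and 6 are partly exonic. Of 52 SNORA and SCARNA rows under the threshold with a host, 3 lie inside an exon and 48 are intronic. Members inside an exon had a median level of 9.45 RPKM, against 2.53 RPKM for intronic members, and 18 of the 20 highest members lie inside an exon. The level of a row thus went with whether an annotated transcript covers it, and since the threshold was set on the level, the share of exonic rows among members is not independent of the rule. AKIT replicate 2 was the highest AKIT library in 33 of the 39 exonic and 15 of the 25 intronic members, with median deviations of 0.76 and 0.60 on the log2(RPKM + 1) scale and median totals of 122 and 42 reads. SNORA26, which hardly varied, is an intronic row.

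**Figure D5:**
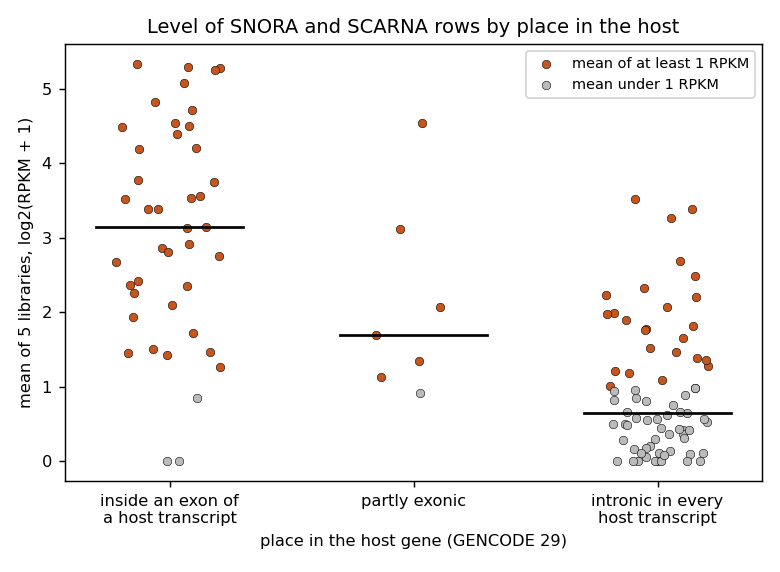
Mean of the 5 libraries on the log2(RPKM + 1) scale (vertical axis) for SNORA and SCARNA rows by their place in the host gene in GENCODE release 29 (horizontal axis); orange points are the members, grey points are rows with a mean under 1 RPKM, and bars are medians of all points in a class. Exonic rows hold 39 members and 3 other rows, and intronic rows hold 25 members and 48 other rows.

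Base composition varied with the same deviation. The 69 members with a sequence outside chromosome 8 had 32.5% to 72.4% of G and C (median 48.7%). SNORA40, the lowest, and SNORA76, with 66.9%, are among those printed above. Across these members the share of G and C had a Spearman correlation of -0.43 with the deviation of AKIT replicate 2, and length one of -0.13. The points share 3 libraries and rest on few reads each, and the part of base composition in the library differences was not tested.

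The proteins that bind H/ACA RNAs varied little. DKC1, the gene of dyskerin, had 48.9, 49.6 and 55.9 RPKM in AKIT and 45.4 and 41.6 RPKM in E8 (log2 difference 0.24 ± 0.10 SE, limma adjusted p = 0.148). NOP10, NHP2 and GAR1, the other core proteins, had differences of 0.19, -0.10 and 0.22 (limma, adjusted p = 0.460, 0.635 and 0.268), so that 0 of 4 core genes passed. DKC1 is also the host of SNORA56. AKIT replicate 2 was not the highest AKIT library in any of the 4 core genes.

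Genes for assembly and processing of the particles rose in part. In a list of H/ACA proteins and processing factors, 4 of 21 tested genes rose and 0 fell, beside 8.22% and 11.7% of all rows. TCOF1, the gene of treacle, a nucleolar phosphoprotein, had 41.7, 43.8 and 46.0 RPKM in AKIT and 29.2 and 29.6 RPKM in E8 (0.56 ± 0.09 SE, limma adjusted p = 0.00878). NOLC1, a nucleolar and Cajal body protein that binds snoRNPs, had 120, 134 and 136 RPKM in AKIT and 99.5 and 99.0 RPKM in E8 (0.38 ± 0.10 SE, limma adjusted p = 0.0355). Both were higher in every AKIT library. NAF1, an assembly factor that precedes GAR1 on the particle, rose by 0.45 on the log2 scale and TGS1, which methylates the caps of some small RNAs, by 0.44 (limma, adjusted p = 0.0394 and 0.0238). Leaving out either E8 library left 0 of the list called, and leaving out AKIT replicate 3 left 1. Leaving out AKIT replicate 2 gave 10 that rose and 2 that fell, beside 14.5% and 17.8% of all rows. Of 12 stand-alone pseudouridine synthases, which need no guide RNA, 1 rose, PUS7L, and 0 fell.

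TERC, the telomerase RNA, is an H/ACA RNA that the symbol rule leaves out. It had 6, 1 and 5 reads in AKIT and 7 and 9 reads in E8, or 0.572, 0.0953 and 0.572 RPKM in AKIT and 0.879 and 1.23 RPKM in E8 (-0.55 ± 0.20 SE, limma adjusted p = 0.101). Every AKIT library was below both E8 libraries, and AKIT replicate 2, the highest library for most members, was the lowest for TERC. Other short noncoding RNAs that are not hosted in introns had few reads: 15 rows of spliceosomal, vault, Y and ribonuclease RNAs held 14, 30 and 44 reads in AKIT and 9 and 12 reads in E8. There AKIT replicate 3 and not replicate 2 was the highest.

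Markers of the cell type were those of pluripotent cells in all libraries. The 7 pluripotency markers summed to 2399, 2432 and 2474 RPKM in AKIT and 2730 and 2722 RPKM in E8. Markers of other cell types varied between libraries in their own order: the 6 fibroblast markers summed to 248, 191 and 196 RPKM in AKIT and 327 and 329 RPKM in E8, of which COL1A1 and THY1 held most, and LUM and DCN were at 0 in both E8 libraries. AKIT replicate 1, the lowest library for most members, was the highest AKIT library for 5 of those 6 and for all 4 trophoblast markers, which summed to 8.50, 2.01 and 3.15 RPKM in AKIT and 6.69 and 6.48 RPKM in E8. The 5 neural markers summed to 206, 181 and 224 RPKM in AKIT and 137 and 129 RPKM in E8, nearly all of it TUBB3, and the 4 endoderm markers to 3.70, 4.84 and 3.54 RPKM in AKIT and 1.30 and 1.17 RPKM in E8. Whether cells of other types were present was not tested, nor was any part of theirs in the values of the H/ACA rows. In bulk RNA fewer cells of a type and less RNA per cell cannot be told apart.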

How the data were processed

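Total RNA of KhES-1 cells was purified with a column kit and sequenced as Illumina libraries, per the labels' protocols. The authors deposited RPKM values per gene symbol, already scaled to row length and library depth. The submitters' processing notes name hg19 and GRCh37. The aligner, counter, annotation, strand setting and handling of reads with several matches are unknown, being not given in the sources used here. Columns were matched to samples by title.

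Within a row RPKM values are multiples of 1 read, from which reads and library totals were recovered: 100% of 19892 rows above 0 gave whole reads (tolerance 0.02 reads). Media were compared with limma 3.58.1 (R 4.3.3, intensity trend) on log2(RPKM + 1), for rows averaging 0.5 RPKM or more, two-sided, with Benjamini-Hochberg adjustment over 14776 rows at 0.05. Libraries of the same medium were compared with exact binomial tests on recovered reads, adjusted alike. The limma test was first run on simulated data with equal spread in both media, and the binomial test on data with counting error only. These simulations did not model the larger spread of the AKIT libraries. Host, place and sequence came from GENCODE release 29 (GRCh38). Since the values are of another build, no coordinates are given. Folds were predicted with RNAfold 2.7.2.

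Members and lists were chosen with earlier results of these data known. Named rows are the 10 highest members, members that passed the test, and the 5 with the largest ratio of highest to median library. Those 5 were taken from members with at least 20 reads in some library. Also named are 3 rows on each side of the threshold, every SCARNA member, the core proteins, TERC and other H/ACA genes that passed. The hosts of these and the 5 hosts with the largest change are named too. Others are marked as chosen after their values were seen. The alternatives changed the pseudocount (0.1 or 0.5), the filter (none, or 2 RPKM), the scaling (quantile or median-of-ratios), the variance model (array weights, or no trend), the unit (voom on recovered reads), the covariates (a replicate block) and the libraries (each left out).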

Additional observations from a re-analysis of the deposited data

How the results depend on the processing

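Of 857 values of named rows under an alternative, 745 kept direction and side of the threshold, 42 lost and 33 gained the call, and 37 changed sign, 0 of them past the threshold in either setting. For the 75 H/ACA rows the counts higher and lower in AKIT were 1 and 0 with a pseudocount of 0.1, 1 and 0 with 0.5, 0 and 0 without a filter, 1 and 0 of 58 with a minimum mean of 2 RPKM, 1 and 0 with median-of-ratios scaling, 2 and 0 with quantile normalization, 0 and 1 without a trend, 3 and 11 with array weights, and 0 and 0 with voom. Leaving out 1 library gave 0 to 2 higher and 0 to 16 lower. All rows gave 1214 higher and 1736 lower, 2269 and 2740 with array weights, 1237 and 1900 with voom, and 142 to 2132 and 250 to 2619 with a library left out. H/ACA protein genes gave 4 and 0, 7 higher with quantile normalization, 9 and 2 with array weights, and 0 to 10 and 0 to 2 with a library left out. Hosts gave 9 and 0, 15 and 1 with array weights, 1 lower with voom, and 1 to 15 and 0 to 3 with a library left out. Leaving out an E8 library leaves 1 sample there, assumed to vary like the AKIT libraries. The causes were not tested.

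Replicates share only a number: the deviations of same-numbered samples correlated at -0.0013 and 0.025. With the replicate block, 492 rows were higher and 824 lower, with 1 and 1 of the H/ACA rows, 0 of the protein genes and 2 of the hosts higher. The rule gave 58 rows at a mean of 2 RPKM, and 90 rows had at least 10 reads. Scaled to reads in rows other than small RNAs, the H/ACA rows took 60.8, 128 and 80.8 RPM in AKIT and 108 and 102 RPM in E8.

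Among the log2 differences that changed sign, SCARNA17 had 0.03 by limma with a pseudocount of 1, but -0.024 with a pseudocount of 0.1, -0.23 with array weights and -0.0095 with voom. With quantile normalization SCARNA10 had 0.075 and EIF4A2 -0.0025, and with array weights SNHG10 had -0.012. With the replicate block SNORA40 had 0.14, SCARNA15 0.19 and EIF4A1 -0.051. With a library left out, the differences ran from -0.051 to 0.042 for EIF4A1, -0.043 to 0.084 for EIF4A2, -0.17 to 0.028 for NHP2, -0.094 to 0.14 for RPS2, -0.18 to 0.081 for SCARNA10, -0.88 to 0.19 for SCARNA15, -1.06 to 0.29 for SCARNA16, -0.49 to 0.35 for SCARNA17, -0.053 to 0.68 for SCARNA9, -0.090 to 0.94 for SCARNA9L, -0.065 to 0.14 for SNHG10, -0.78 to 0.18 for SNORA1, -0.79 to 0.91 for SNORA2B, -0.56 to 0.14 for SNORA40, -0.45 to 0.041 for SNORA42, -0.0033 to 1.31 for SNORA53, -0.023 to 0.52 for SNORA61, -0.64 to 0.071 for SNORA63, -0.50 to 0.14 for SNORA64 and -0.074 to 0.39 for TAF1D.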
